A study of Mus musculus with 6 samples.

Results

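The genes described here are 115 homeobox regulators of development, chosen by symbol from the 55341 gene symbols of the count tables. They comprise every Hox, Irx, Dlx, Nkx, Msx, Pitx, Otx, Barhl, Meis, Pbx, Pou, Emx, Vax, Alx, Prrx and Onecut gene listed, and every gene of the sine oculis family. The rule that takes them uses the symbol alone. The data were 6 poly(A) RNA-seq libraries of cultured mouse cerebellar granule neurons (CGNs), 3 from cultures given the vehicle DMSO and 3 from cultures given GSK-126, an inhibitor of the methyltransferase EZH2. The study asked what continued EZH2 activity contributes to gene expression while newly postmitotic CGNs mature.

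According to the study's methods, both groups were cultures from CD1-IGS mice. Granule neuron precursors were purified on a Percoll gradient from early postnatal cerebella, and cytosine arabinoside, which kills dividing cells, was added to all cultures. The study's methods give more than 1 possible day for adding the inhibitor, and 1 day of harvest for the cultures treated with it. The labels give the agent and a replicate number, and state neither the dose nor the day. The day of addition in these libraries is therefore not known here. They call the source cerebellum, although the sample titles name CGNs. Purification enriches for granule neurons and leaves some other cells, so each library is a mixture.

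Homeobox genes encode transcription factors that bind DNA through a homeodomain and set position and cell identity in the embryo. Many of them are classic targets of Polycomb: the PRC2 complex, with EZH2 or EZH1 as its catalytic subunit, places H3K27me3 over their CpG-rich promoters in cells that do not use them. In the cerebellum Barhl1, Meis1 and Pbx factors are known from the granule lineage, Otx2 from its precursors, and the Hox clusters from the hindbrain and spinal cord behind it.

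Of the 115 members, 37 reached a CPM (count scaled to library size) of 1 in at least 3 of the 6 libraries and were tested, and 78 did not. Among the tested members 31 had at least 1 CPM in every library, and 28 had a mean of at least 1 RPKM (CPM per kilobase of exon, the scale on which levels of different genes are compared here). Pou4f1 was the 1 member that passed the filter through the GSK-126 libraries alone. All Barhl, Meis, Otx, Pbx and Prrx genes passed, as did 2 of 3 Alx, 4 of 6 Irx, 2 of 3 Msx, 3 of 14 Nkx, 1 of 3 Onecut, 8 of 15 Pou genes and 4 of 6 genes of the sine oculis family. No gene of the Hox (39), Dlx (6), Emx (2), Pitx (3) or Vax (2) families passed.

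Sequences of the members that the results turn on come first. Barhl1 and Barhl2 are paralogs, were the 2 members with the highest level per exon length, and had fitted changes of opposite sign. Their homeoboxes are therefore shown side by side. No other part of their sequence was compared, and confusion of reads between them was not tested. These are the 180 bases of each homeobox, 5′ to 3′, from the GENCODE M21 transcripts (GRCm38), with the codons of the conserved tryptophan-tyrosine-glutamine-asparagine-arginine-arginine stretch of the recognition helix in capitals.
Barhl1: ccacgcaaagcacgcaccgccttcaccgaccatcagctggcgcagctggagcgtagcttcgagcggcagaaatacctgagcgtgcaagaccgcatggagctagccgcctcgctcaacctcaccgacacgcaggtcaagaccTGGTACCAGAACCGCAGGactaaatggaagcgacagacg
Barhl2: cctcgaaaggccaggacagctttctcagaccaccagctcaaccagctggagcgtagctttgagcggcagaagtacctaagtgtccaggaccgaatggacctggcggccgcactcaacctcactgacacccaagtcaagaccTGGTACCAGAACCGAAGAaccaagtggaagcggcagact
The 2 homeoboxes were identical at 144 of 180 bases (80%), their translations at 56 of 60 residues, and the longest run of identical bases was 23. Barhl1 lies at chr2:28907679-28916668 and Barhl2 at chr5:106452523-106458166, both on the minus strand, and no exon of either overlaps a gene on the opposite strand.

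The second set is the 250 bases before the annotated start of 3 members: Barhl2, the 1 member whose change passed the test, Pou3f2, which had the lowest adjusted p among the members with a positive change, and Pou4f1, which had the largest fitted change. CG dinucleotides are in capitals, because CpG-rich promoters are those that Polycomb is known to occupy. The sequences are from RefSeq on GRCm38.p6, minus strand, 5′ to 3′, at chr5:106458167-106458416 (Barhl2), chr4:22488367-22488616 (Pou3f2) and chr14:104468000-104468249 (Pou4f1).
Barhl2: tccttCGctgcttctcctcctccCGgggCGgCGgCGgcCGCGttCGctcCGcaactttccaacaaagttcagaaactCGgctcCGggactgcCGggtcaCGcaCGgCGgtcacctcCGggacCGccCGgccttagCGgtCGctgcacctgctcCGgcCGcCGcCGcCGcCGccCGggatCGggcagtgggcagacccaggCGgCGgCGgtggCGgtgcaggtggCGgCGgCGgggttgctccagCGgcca
Pou3f2: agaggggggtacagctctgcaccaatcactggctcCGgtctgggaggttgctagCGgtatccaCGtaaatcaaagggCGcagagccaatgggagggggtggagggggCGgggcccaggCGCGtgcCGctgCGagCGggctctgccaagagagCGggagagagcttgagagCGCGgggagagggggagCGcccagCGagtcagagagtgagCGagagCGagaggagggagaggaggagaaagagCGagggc
Pou4f1: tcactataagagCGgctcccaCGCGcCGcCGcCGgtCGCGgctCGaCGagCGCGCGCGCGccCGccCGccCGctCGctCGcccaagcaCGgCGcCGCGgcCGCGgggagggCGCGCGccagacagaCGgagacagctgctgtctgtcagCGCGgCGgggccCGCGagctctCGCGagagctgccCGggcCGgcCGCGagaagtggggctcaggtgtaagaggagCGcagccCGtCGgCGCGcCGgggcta
They held 36, 18 and 47 CG dinucleotides. Of the members, 72 matched a RefSeq promoter by symbol, and the median over them was 14.5 (interquartile range 9 to 22.5), against 6 over all 27018 RefSeq promoters and 15 over the 11600 promoters of genes tested. The 27 tested members had a median of 15, the 45 members below the filter 14 and the 26 members without a read 13, so the CG content of the window hardly separated expressed from silent members. TAATTA, the palindromic core that many homeodomains bind and that reads the same on both strands, was in 4 of the 72 windows (5.56%) and in 4.9% of all RefSeq promoters. It was in 3 of the 27 windows of tested members (11.1%), against 2.29% of the promoters of genes tested. It was in none of the 3 windows shown.

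Library totals ran from 8058760 to 12047837 gene counts, and a count of 3, the floor below which a gene is treated as not measured, was 0.249 to 0.372 CPM. No 2 libraries agreed within sampling noise. Libraries of the same replicate number deviated together, with correlations of 0.34 to 0.50 after each group was centred on its mean. Different numbers gave -0.39 to -0.01, but the centring pushes these down when same numbers correlate, so they add no separate evidence. Because same numbers correlated and a culture replicate in the study is a pool of litters, the main fit holds the replicate number as a block. Ezh2, the target of the inhibitor, had 37.7, 26.7 and 32.4 CPM with DMSO and 37.3, 34.8 and 26.3 CPM with GSK-126, and its level does not check the labels because GSK-126 acts on the enzyme. The granule neuron markers were abundant, with a summed level of 4190 to 6240 CPM with DMSO and 3030 to 4700 CPM with GSK-126. Of these 10 markers 6 fell. The 6 meningeal fibroblast markers were as abundant, at 4600 to 6060 CPM with DMSO and 6520 to 7060 CPM with GSK-126, with a positive fitted change in 6 of 6 and 1 (Col1a1) past the test. The 5 vascular and mural markers summed to 385 to 638 CPM with DMSO and 738 to 894 CPM with GSK-126, without overlap, and Pdgfrb (log2 fold change 0.63) and Acta2 (0.67) rose. Most of that sum was Acta2, at 273 to 505 CPM with DMSO and 555 to 700 CPM with GSK-126. Kdr (log2 fold change -0.01) and Pecam1 (0.38, edgeR adjusted p = 0.784) did not pass, and Cldn5 was too low to test. The 6 astrocyte markers ran from 1990 to 6510 CPM with DMSO and from 2060 to 6760 CPM with GSK-126, lowest in replicate 2 of both groups. In libraries of such mixtures, fewer cells of a type and less RNA per cell cannot be told apart.

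The comparison asks which expressed homeobox genes differed under GSK-126. In the quasi-likelihood test of edgeR with the replicate block, 1 of 37 members passed an adjusted p of 0.05, against 603 of all 16685 genes (3.61%), a share near that of genes at large. That member was Barhl2, which fell, as did 1.38% of all genes, and no member rose (0 of 37, against 2.23% of all genes). Pou4f1 was admitted to the test by its GSK-126 level, so the counts of direction that follow are over the other 36 members. Otx1 stays among the 36, although it reached 1 CPM in all 3 GSK-126 libraries and only 1 DMSO library. Its entry thus also leaned on its GSK-126 level, and it is among the members with a positive change. At an unadjusted p under 0.05 there were 8 of them with a positive change (22.2%, against 9.15% of all genes) and 2 with a negative one (5.56%, against 7.31%). Without the block edgeR called 0 members and 0 genes, with 5 of the 36 members (13.9%) and 5.97% of all genes at an unadjusted p under 0.05.

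More members had a positive than a negative estimate. The fitted log2 fold change was positive in 26 and negative in 10, with a median of 0.20 against -0.00 over all genes tested. The median within replicate numbers 1, 2 and 3 was 0.29, 0.13 and 0.15. Over all 37 tested members the median was also 0.20. It was 0.11 without replicate 1, and without the block it was 0.11 without GSK-126 replicate 1, with 21 positive and 16 negative, and 0.33 without DMSO replicate 1. Of the 36 members 6 had 3 GSK-126 libraries all above the 3 DMSO libraries (16.7%, against 5.40% of all genes) and 2 had them all below (5.56%, against 5.42%). In 13 members all 3 replicate numbers were higher with GSK-126 (36.1%, against 19.6%), and in 7 all were lower (19.4%, against 19.2%). These are descriptions of the members; their sizes were mostly small, as the plot of fitted changes shows.

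**Figure D1:**
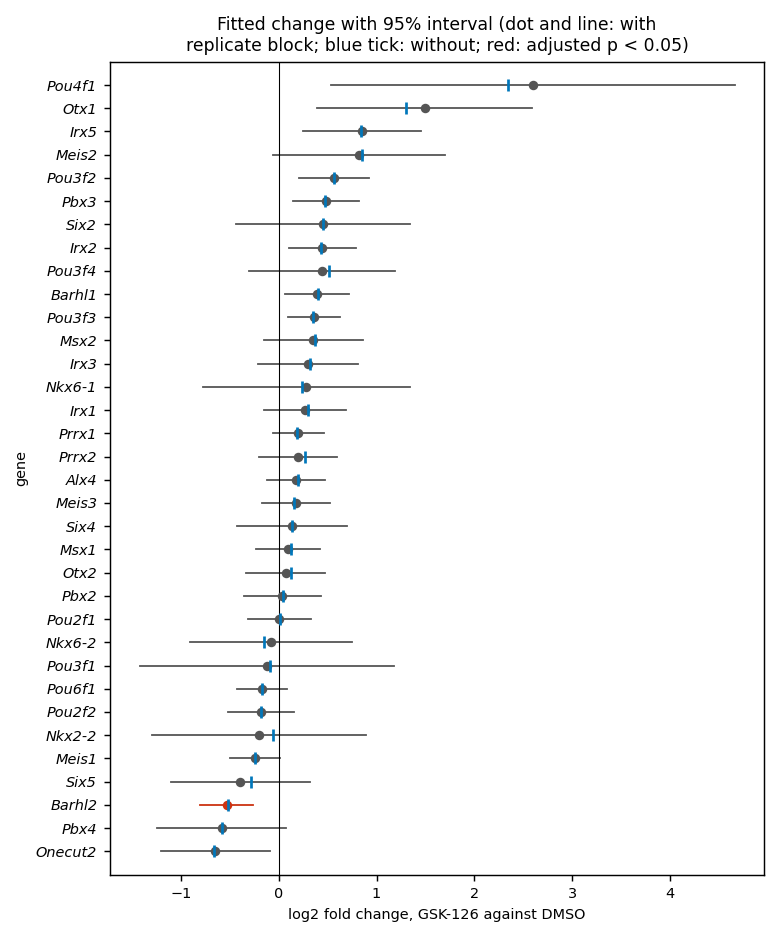
Fitted log2 fold change of 34 of the 37 tested members, GSK-126 against DMSO (x axis), 1 gene a row. Dots and lines are the estimate and its 95% interval from edgeR with the replicate block, blue ticks the estimate without it, and red marks the member with an adjusted p under 0.05; most estimates lie above 0, and Barhl2 is the 1 red row.

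The BarH-like genes are homeodomain factors of the NK-like class. Barhl1 is known for the migration and survival of granule neurons, and Barhl2 for neuron subtype identity in retina and spinal cord. Barhl2 was measured at 51.4, 66.9 and 47.0 CPM with DMSO and at 36.2, 49.6 and 29.6 CPM with GSK-126 (55.1 ± 10.5 against 38.5 ± 10.2, SD, n = 3). Each GSK-126 library lay below the DMSO library of its number, and the groups overlapped only because replicate 2 was the highest in both. Barhl2 fell by 0.53 on the log2 scale (SE 0.125, 95% interval -0.81 to -0.26, edgeR adjusted p = 0.0394), with within-number differences of -0.50, -0.43 and -0.66. Without the block the change was -0.52 and the adjusted p 0.829, and with the block the call was lost when replicate 2 (adjusted p = 0.128) or replicate 3 (adjusted p = 0.310) was left out. Of the 10 granule neuron markers 6 fell with it. Zic1 (log2 fold change -0.37, edgeR adjusted p = 0.0515) and Zic2 (-0.27, adjusted p = 0.215) did not pass, and Neurod2 (0.00) and Pax6 (0.04) had hardly any change. The part of these markers in the lower Barhl2 level was not tested.

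Barhl1 had 82.9, 70.6 and 86.1 CPM with DMSO and 91.3, 131 and 95.1 CPM with GSK-126 (79.9 ± 8.22 against 106 ± 22.2, SD, n = 3). The groups did not overlap, with replicate 2 of GSK-126 far above the rest. The fitted log2 change was 0.39 (SE 0.150, 95% interval 0.06 to 0.72, edgeR adjusted p = 0.214), so Barhl1 did not pass the test. With no filter on low counts it did (adjusted p = 0.0431 in edgeR), and without replicate 2 its estimate was 0.16 (adjusted p = 0.672). Per exon length the 2 genes were alike with DMSO, at 18.1 to 22.1 RPKM for Barhl1 and 20.3 to 28.9 RPKM for Barhl2. With GSK-126 they were apart, at 23.4 to 33.6 RPKM for Barhl1 and 12.8 to 21.4 RPKM for Barhl2.

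The ratio of the Barhl1 to the Barhl2 CPM, taken after their values were seen, needs no scaling between libraries. It was 1.61, 1.05 and 1.83 with DMSO and 2.52, 2.65 and 3.21 with GSK-126 (1.50 ± 0.401 against 2.79 ± 0.364, SD, n = 3). All 3 GSK-126 libraries had a higher ratio than any DMSO library. Since the pair was chosen for its opposite signs, the ratio is a description and was not tested.

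**Figure D2:**
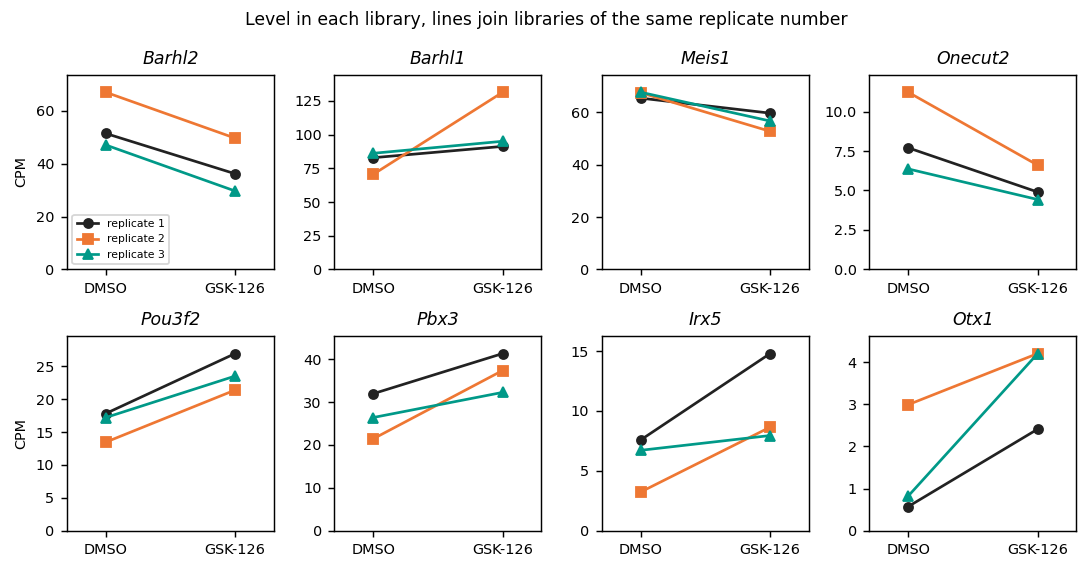
CPM of 8 members (y axis, from 0) with DMSO and with GSK-126, with a line for each replicate number. For Barhl2 all 3 lines go down from different starting levels, and for Barhl1 replicate 2 alone moves far, from 70.6 to 131 CPM.

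Other NK-like members were low or varied between cultures. Msx1, a repressor active in mesenchyme and neural crest, had 33.2, 17.2 and 29.6 CPM with DMSO and 37.5, 15.9 and 33.7 CPM with GSK-126 (log2 fold change 0.09, edgeR adjusted p = 0.825). Msx2 had a log2 fold change of 0.35 (adjusted p = 0.497). The 3 Nkx genes that passed the filter, Nkx2-2, Nkx6-1 and Nkx6-2, which pattern the ventral neural tube and mark oligodendrocyte and interneuron lineages, had means between 1.61 and 7.03 CPM with DMSO. Their log2 fold changes lay between -0.20 and 0.28, and each interval reached to -0.78 or lower and to 0.75 or higher.

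From the three-amino-acid-loop (TALE) class the rule takes the Meis and Pbx cofactors, which pair with Hox and other homeodomain proteins on DNA. It also takes the Irx (Iroquois) factors of neural patterning, and does not cover the whole class. Among the members these were the best represented class: 11 of 13 genes were tested. Of the 11, 9 had a positive change, against 8296 of all 16685 genes tested, and the median was 0.27. None passed the adjusted test. Pbx3 had 32.0, 21.4 and 26.4 CPM with DMSO and 41.3, 37.4 and 32.3 CPM with GSK-126. All GSK-126 libraries lay above all DMSO libraries, by little at the nearest point (log2 fold change 0.48, SE 0.153, edgeR adjusted p = 0.125). Pbx3 is also the 1 member on the study's list of genes next to peaks with more H3K27me3 under GSK-126.

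Pbx2 did not move one way (log2 fold change 0.04, 95% interval -0.36 to 0.43), and its sign changed with the libraries used. Pbx4 had a negative estimate, with 5.75, 5.73 and 5.42 CPM with DMSO and 3.57, 3.72 and 3.97 CPM with GSK-126. The groups did not overlap and were tight, but the counts were low, and the log2 fold change of -0.58 had an SE of 0.303 (edgeR adjusted p = 0.376).

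Meis1, which granule precursors and neurons are known to express, had 65.4, 67.4 and 67.6 CPM with DMSO and 59.7, 52.7 and 56.7 CPM with GSK-126. The difference was small and without overlap (log2 fold change -0.25, SE 0.116, edgeR adjusted p = 0.322). A gene on the opposite strand covers 8.51% of its exons, so a part of its reads is uncertain. Meis2, a mark of cerebellar nuclear and other non-granule neurons, had 1.95, 2.24 and 1.65 CPM with DMSO and 3.41, 4.80 and 2.38 CPM with GSK-126. Those groups did not overlap either, and the log2 fold change was 0.82 (SE 0.402, adjusted p = 0.345). Meis3 was higher in level, between 21.5 and 33.8 CPM, with a log2 fold change of 0.18 (adjusted p = 0.646).

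All 4 tested Irx genes had positive estimates, from 0.27 to 0.85. Irx5 had 7.59, 3.24 and 6.72 CPM with DMSO and 14.8, 8.65 and 7.95 CPM with GSK-126. The groups did not overlap, though the within-number differences ran from 0.24 to 1.36. The log2 fold change of 0.85 had an SE of 0.274 (edgeR adjusted p = 0.133, and 0.0259 without a filter). It was 0.64 without replicate 2 (adjusted p = 0.375) and, without the block, 0.50 without GSK-126 replicate 1 (adjusted p = 0.999). Irx2, next to Irx1 on chromosome 13, had 29.4, 14.2 and 15.8 CPM with DMSO and 36.7, 19.1 and 24.1 CPM with GSK-126. Replicate 1 was highest in both groups, so the groups overlapped while each number was higher with GSK-126 (log2 fold change 0.45, SE 0.158, adjusted p = 0.176). Irx1 had a log2 fold change of 0.27 (adjusted p = 0.542) and rested on replicate 1 of GSK-126, at 34.7 CPM against 16.6 to 22.9 CPM in the other 5 libraries. Irx3 was alike, with a log2 fold change of 0.30 (adjusted p = 0.589) and 14.9 CPM in that library against at most 10.3 CPM in the others.

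POU factors carry a POU-specific domain beside the homeodomain. Class III members act in neural precursors and migrating neurons, and Pou4f1 (Brn3a) marks sensory and some hindbrain neurons. Pou3f2 (Brn2) had 17.8, 13.5 and 17.2 CPM with DMSO and 26.9, 21.4 and 23.5 CPM with GSK-126 (16.2 ± 2.36 against 23.9 ± 2.80, SD, n = 3). The groups did not overlap, and the within-number differences were close, at 0.59, 0.66 and 0.45. The log2 fold change was 0.57 (SE 0.164, 95% interval 0.21 to 0.93, edgeR adjusted p = 0.0907), the nearest to the threshold of any member with a positive change. Pou3f3 (Brn1) had 55.5, 36.5 and 49.9 CPM with DMSO and 68.8, 50.9 and 61.3 CPM with GSK-126. Its groups overlapped, but each number was higher with GSK-126 (log2 fold change 0.36, SE 0.120, adjusted p = 0.147).

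The other class III members showed no such pattern. Pou3f4 ran from 2.95 to 6.36 CPM with DMSO and from 3.52 to 10.7 CPM with GSK-126 (log2 fold change 0.44, edgeR adjusted p = 0.581). Pou3f1, on the study's list of genes next to peaks with less H3K27me3 under GSK-126, had 0.690, 1.50 and 1.06 CPM with DMSO and 0.416, 1.32 and 1.36 CPM with GSK-126. Its interval of -1.42 to 1.17 allowed a change of over 1 log2 unit in either direction.

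Pou4f1 is best read in raw counts: 0, 0 and 7 with DMSO and 15, 14 and 13 with GSK-126. The 3 GSK-126 libraries were alike and above every DMSO library, and 2 DMSO libraries had no read, which a count of 0 allows up to the floor of 3 counts. The size of the fitted log2 fold change, 2.60 with an SE of 0.942 (edgeR adjusted p = 0.186), depends on the prior count. Without replicate 3 no DMSO read remains, so the fit that leaves it out gives no usable size. As the member was admitted by its GSK-126 level, no test of it is used as support. The broadly expressed members Pou2f1, Pou2f2 and Pou6f1 were between 20.7 and 67.3 CPM, with log2 fold changes from -0.18 to 0.01. Opposite-strand exons cover 18.1% of the exons of Pou2f1.

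**Figure D3:**
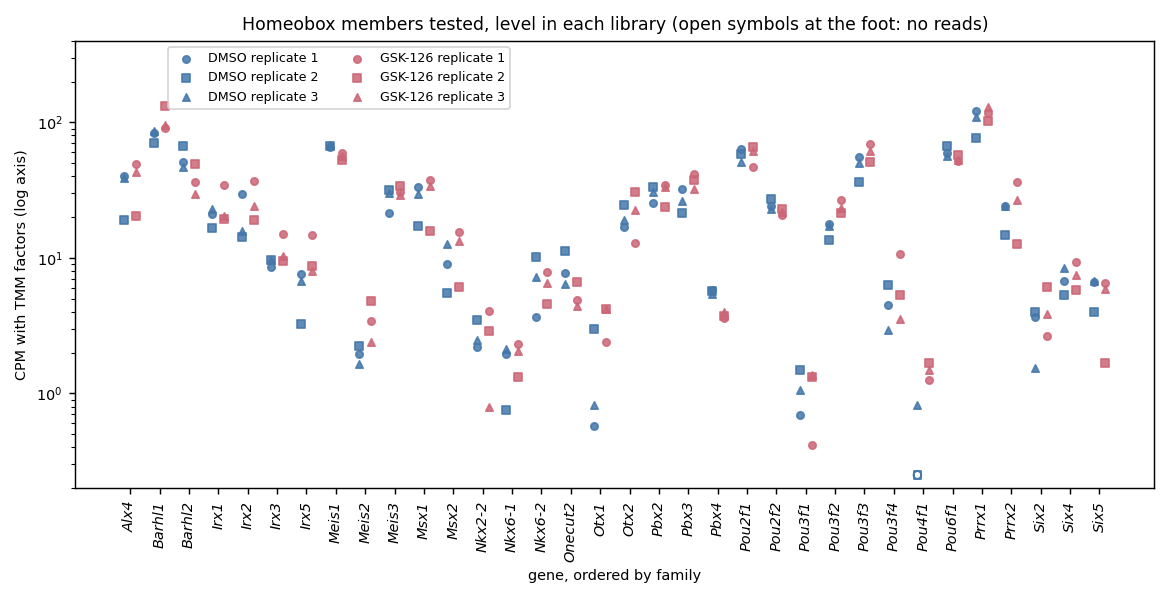
CPM of 34 of the 37 tested members in each of the 6 libraries (y axis, log scale), ordered by family. Blue is DMSO and red GSK-126, with circles, squares and triangles for replicate numbers 1, 2 and 3 and open symbols at the foot for the 2 libraries without a Pou4f1 read. Most pairs of blue and red overlap, and the squares of Alx4, Msx1, Msx2 and Prrx2 sit low in both colours.

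Among the paired-like members, Otx1 and Otx2 specify forebrain and midbrain, and Otx2 is also used in granule precursors of the posterior cerebellum. Otx1 had raw counts of 5, 24 and 7 with DMSO and 29, 35 and 37 with GSK-126, or 0.575, 2.99 and 0.825 CPM against 2.41, 4.20 and 4.20 CPM. Replicate 2 of DMSO reached the GSK-126 range and the other 2 did not. Only that DMSO library reached 1 CPM, so Otx1 passed the filter mainly by its GSK-126 level, and its tests are not used as support. The log2 fold change was 1.49 (SE 0.501, 95% interval 0.39 to 2.59, edgeR adjusted p = 0.153, and 0.0283 without a filter). It was 1.12 without replicate 3 (adjusted p = 0.566) and 2.21 without replicate 2 (adjusted p = 0.120). Otx2 had 16.8, 24.6 and 19.0 CPM with DMSO and 12.9, 30.6 and 22.6 CPM with GSK-126 (log2 fold change 0.07, 95% interval -0.33 to 0.48), and its sign changed with the libraries used.

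Alx4, Prrx1 and Prrx2 are known from craniofacial and limb mesenchyme. Prrx1 reached 121, 77.2 and 109 CPM with DMSO and 118, 102 and 130 CPM with GSK-126 (log2 fold change 0.20, edgeR adjusted p = 0.437), and Prrx2 had the same estimate (0.20, adjusted p = 0.657). Prrx2 and Prrx1 were the third and the fourth of the members by level per exon length, at a mean of 11.8 and 9.91 RPKM, behind Barhl1 at 23.8 and Barhl2 at 20.2 RPKM. The 2 collagens of the meningeal fibroblast list did not overlap between groups (4080 to 5600 CPM against 6140 to 6550 CPM in sum), and the other 4 markers did (312 to 526 CPM against 373 to 590 CPM). The summed vascular and mural markers, most of them Acta2 by level, did not overlap. Their part in the positive estimates of these members was not tested. None of the fibroblast markers was at 0.

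After the leading pair the order by level of the members named here ran Prrx2, Prrx1, Meis3 (9.31), Msx1 (8.99), Irx1 (8.57), Pbx2 (8.31), Pou6f1 (8.27), Pou3f3 (7.27) and Irx2 (7.08 RPKM). Neighbours in this order from Prrx2 down differed by less than the larger SD over the 6 libraries, and so did Barhl1 and Barhl2, while Barhl2 stood above Prrx2 by 8.41 RPKM against an SD of 5.61.

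Six2, Six4 and Six5 are homeodomain factors of the sine oculis family, which acts in eye, kidney and muscle development. Six2 ran from 1.53 to 6.13 CPM (log2 fold change 0.45, edgeR adjusted p = 0.649) and Six4 from 5.36 to 9.39 CPM (0.14, adjusted p = 0.856). Six5, the second gene on the study's list of genes next to peaks with less H3K27me3, had 6.67, 3.99 and 6.72 CPM with DMSO and 6.57, 1.68 and 5.91 CPM with GSK-126. Both groups were lowest in replicate 2, and the log2 fold change was -0.39 (SE 0.324, adjusted p = 0.612). Onecut2, a factor of liver and of early-born neurons, had 7.70, 11.2 and 6.36 CPM with DMSO and 4.90, 6.61 and 4.43 CPM with GSK-126. The groups overlapped by 1 library, each number was lower with GSK-126, and the log2 fold change was -0.65 (SE 0.254, adjusted p = 0.221), the most negative of the members.

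Some members differed between replicate numbers. With the replicate terms tested in the same model, a comparison added after the values were seen, 6 of 37 members differed between replicate numbers (16.2%, against 11.5% of all genes) at an adjusted p of 0.05 in edgeR, a share not far from that of all genes. They were Alx4 (adjusted p = 0.00209), Msx1 (0.00603), Irx2 (0.0108), Prrx2 (0.0171), Msx2 (0.0413) and Barhl2 (0.0447). Replicate 2 was the lowest of both groups in 14 members (37.8%, against 21.0% of all genes) and the highest of both in 9 (24.3%, against 20.7%). The low ones included the mesenchymal members Alx4, Msx1, Msx2, Prrx1 and Prrx2, and the high ones Barhl2, Otx1, Otx2 and Onecut2.

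Alx4 shows the size of this: it had 40.3, 19.1 and 38.5 CPM with DMSO and 48.9, 20.3 and 42.8 CPM with GSK-126, so replicate 2 was about as low under either agent. The summed astrocyte markers moved in the same way, with 1990 and 2060 CPM in replicate 2 and 3410 to 6760 CPM in the other 4 libraries. Dcn, Lum, Foxc1 and Foxd1 of the fibroblast list were also lowest in replicate 2 of both groups, with a sum of 312 and 373 CPM against 455 to 590 CPM in the other 4 libraries. The 2 collagens, which make up most of the fibroblast sum, were not (4550 CPM with DMSO, between the other 2, and 6140 CPM with GSK-126). The granule neuron sum was the highest of its group in replicate 2, at 6240 and 4700 CPM. The part of cell makeup in these differences was not tested.

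**Figure D4:**
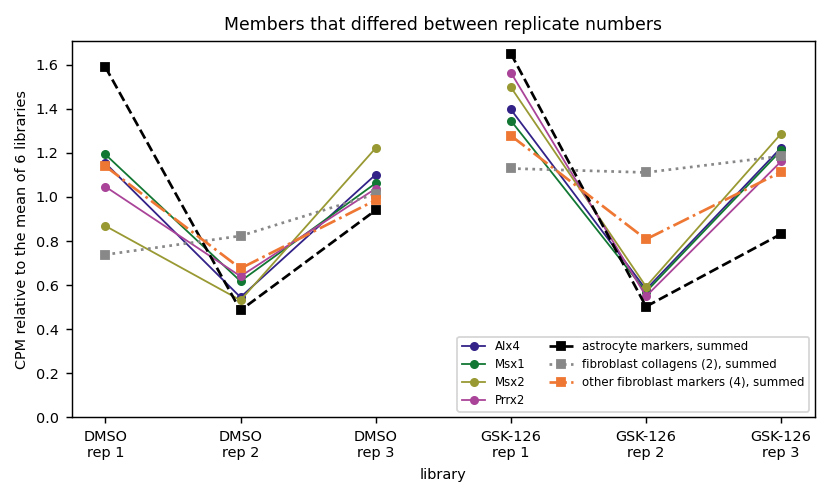
CPM of Alx4, Msx1, Msx2 and Prrx2 and the summed CPM of astrocyte markers, of the 2 meningeal fibroblast collagens and of the other 4 fibroblast markers in each library (y axis), each divided by its mean over the 6 libraries, with lines joining libraries of 1 group. The 4 members, the astrocyte sum and the sum of Dcn, Lum, Foxc1 and Foxd1 dip in replicate 2 of both groups, and the collagens have no comparable dip.

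None of the 39 Hox genes passed the filter under either agent. Hox genes lie in 4 clusters and are used in an order that follows the body axis, with the low-numbered paralogue groups in the hindbrain and the high-numbered ones in the trunk. No read fell on 29 of them in any library, which allows each up to 3 counts per library. Of paralogue groups 1 to 5, 8 of 15 genes had a read, with 49 counts over the 3 DMSO libraries and 78 over the 3 GSK-126 libraries. Of groups 6 to 13, 2 of 24 had a read (Hoxd8 and Hoxa9), with 6 counts with DMSO and 39 with GSK-126. Hoxd8 alone gave 6 and 38 of these, and Hoxa9 had 1 read. These sums are raw counts not scaled to depth, and GSK-126 replicate 1 was the deepest library, with 12047837 counts. No read fell on a Hoxc gene, while the Hoxa, Hoxb and Hoxd clusters had 66, 62 and 44 counts in all.

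Hoxd8 had the most reads of any silent member: 4, 0 and 2 with DMSO and 13, 6 and 19 with GSK-126. Every GSK-126 library was above every DMSO library, and the highest was 2.16 CPM. In a fit of all genes with no filter its log2 fold change was 2.53 (edgeR unadjusted p = 0.0190, adjusted p = 0.242). That adjusted p was the smallest among the 31 silent members with reads, so none of them passed in this fit. The other Hox genes with the most reads varied without a pattern by group. Hoxb3 had 9, 1 and 1 with DMSO and 2, 4 and 12 with GSK-126, Hoxb2 had 4, 1 and 1 against 11, 4 and 1, and Hoxa2 had 6, 3 and 2 against 8, 0 and 1.

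Reads over shared exons limit some of these counts. Opposite-strand exons cover 52.9% of Hoxb3 and 27.3% of Hoxb2, and the strand setting of the count is not stated. Such exons also cover 16.6% of Nkx1-2, 12.9% of Nkx6-2, 9.67% of Nkx2-2, 8.79% of Emx2 and 8.57% of Pou3f1. Exons of another gene on the same strand, where a read cannot be given to either gene, cover 62.3% of Hoxd3, 52.3% of Hoxd4 and 52.8% of Onecut1. A count of 0 for Hoxd3 or Hoxd4 therefore covers only the remaining part of their exons.

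Outside the Hox clusters another 39 members stayed below the filter. Nkx3-2, a factor of axial skeleton and gut, collected 2, 2 and 1 reads in the DMSO libraries and 5, 7 and 7 in the GSK-126 libraries, without overlap. Its DMSO counts were all below the floor of 3, and in the fit with no filter its log2 fold change was 1.68 (edgeR adjusted p = 0.927). Nkx1-2 had 6, 6 and 3 against 12, 0 and 3, Irx4 had 11, 0 and 3 against 5, 0 and 0, and Emx2, a regulator of cortex and urogenital tract, 3, 0 and 0 against 1, 13 and 1. Emx2 thus rests on 1 library. Members that pattern the forebrain, such as Dlx1 and Dlx2 of GABAergic precursors, Vax1, Vax2 and Six3, had at most 9 counts in any library.

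The summed level of the 78 silent members was 7.01, 4.36 and 4.12 CPM with DMSO and 7.81, 7.09 and 8.29 CPM with GSK-126 (5.16 ± 1.60 against 7.73 ± 0.604, SD, n = 3). The GSK-126 libraries were the 3 highest, with replicate 1 of DMSO close behind. This order rests on Hoxd8: without it the sums were 6.55, 4.36 and 3.89 CPM with DMSO and 6.73, 6.37 and 6.13 CPM with GSK-126, and the groups overlapped. The Hox genes gave 3.79, 0.748 and 1.89 CPM against 4.32, 3.00 and 4.54 CPM of this. The members outside the Hox clusters gave 3.22, 3.62 and 2.24 CPM against 3.49, 4.08 and 3.75 CPM. Between 13 and 17 of the 78 genes had a read in each library, and 18 exceeded 3 counts in any library. The sum over all 78 silent genes in any library was thus below the level of Irx3 alone.

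**Figure D5:**
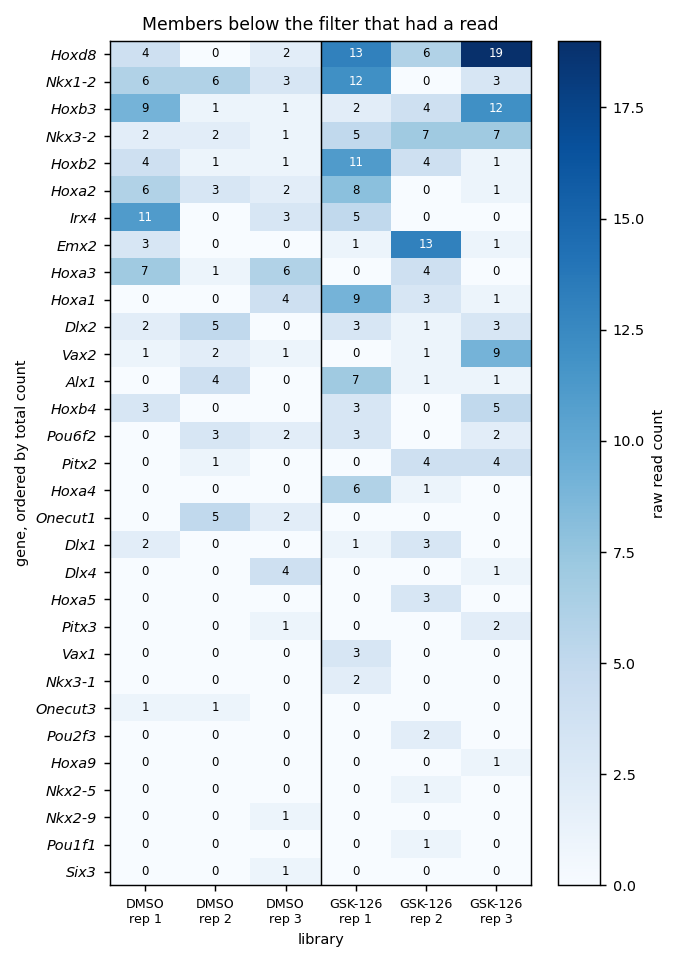
Raw read counts of the 31 members below the filter that had a read in any library, 1 gene a row and 1 library a column, with darker blue for more reads (scale 0 to 19). Hoxd8 and Nkx3-2 are darker in the 3 GSK-126 columns, and most other rows hold scattered low counts in both groups.

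The study's own CUT&RUN and ChIP-seq lists, from other samples, place many members among promoters whose H3K27me3 changes. Of the members 21 are on its list of fast H3K27me3 loss in the maturing cerebellum and 27 on that of slow loss. Only 2 of the 21 (Barhl2 and Meis2) and 6 of the 27 were expressed enough to test, and 13 and 10 had no read in any library. The fast and slow lists share members, among them Meis2 and, without a read, Hoxd3 and Hoxd11, so these are counted in both. The median log2 fold change of the 6 was 0.20, the same as that of all tested members, and none was called. Pou3f3 is the 1 member on the list of gain.

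Genes of the Polycomb machinery and the homeobox genes outside these families give the setting. Of 12 PRC2 genes, Jarid2, a cofactor that brings PRC2 to DNA, fell (log2 fold change -0.56, edgeR adjusted p = 0.0153) and 0 rose. Of 20 PRC1 genes 0 passed. Without the replicate block none of these or of the homeobox genes passed. Of 81 other homeobox genes 37 were tested, with a median log2 fold change of 0.00, and 3 passed (8.11%, against 3.61% of all genes). En1 rose (1.44, adjusted p = 0.0129), as did Zfhx3 (1.22, adjusted p = 0.00752), and En2 fell (-0.49, adjusted p = 0.0282).

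Engrailed genes pattern the midbrain and cerebellum, and like the Barhl pair these paralogs had estimates of opposite sign. En1 had 3.91, 4.36 and 4.83 CPM with DMSO and 12.7, 13.9 and 9.20 CPM with GSK-126, without overlap. En2 had 140, 255 and 180 CPM against 107, 165 and 130 CPM, with overlap and with replicate 2 highest in both groups, as in Barhl2. The ratio of En1 to En2 CPM averaged 0.0240 (SD 0.00598) over the DMSO libraries and 0.0913 (SD 0.0248) over the GSK-126 libraries, n = 3 each, without overlap. Both ratios were chosen after the values were seen and were not tested.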

How the data were processed

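The 6 libraries were made from poly(A)-enriched RNA and sequenced as paired-end reads. According to the study's methods and the submitters' processing notes, the authors trimmed reads with Trimmomatic 0.38, aligned them with STAR 2.7.2b to GRCm38 (mm10) and counted reads over exons with HTSeq. The strand setting is not given in the sources used here. The deposited values are raw read counts per gene symbol, 1 table per library, not normalized and not pooled. Summary rows that name no gene (58.4% to 60.9% of fragments, mostly reads over no annotated exon) entered neither library sizes nor tests.

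Groups and replicate numbers were taken from the sample titles. Genes with CPM of at least 1 in at least 3 of 6 libraries were kept and scaled with TMM factors (0.993 to 1.01). edgeR 4.0.16 (R 4.3.3; glmQLFit and glmQLFTest) was fitted over all 16685 genes with treatment and replicate number as terms, with Benjamini-Hochberg adjustment and a threshold of 0.05. Tests were two-sided. The design was paired because same-numbered libraries correlated (0.34 to 0.50) and the study pools litters per culture replicate. The study names DESeq2 without model terms; DESeq2 1.42.0, limma 3.58.1, the fit without the block, other filters and size factors, and fits without each replicate or library were alternatives. The labels do not say whether replicates were separate cultures in every step, so p-values measure the spread between these samples. Scripts were tested on simulated data. The floor of 3 counts covers counting error only, since reads carried no molecular identifiers. The 95% intervals are from the edgeR fit and include the spread between libraries.

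All 115 members were found in GENCODE M21 (GRCm38), which gave coordinates, exon lengths and overlaps. Members and gene lists were chosen with earlier results of these data known. Members were named with their values if they were called; had 1 of the 3 largest positive or negative changes; did not overlap between groups; were among the 12 highest by RPKM or the 8 silent members with most reads; were on the study's list of H3K27me3 changes under GSK-126; or were Barhl, Meis, Pbx, Otx or Pou3f genes known from the granule lineage. Other members named (Alx4, Msx2, Irx3, Pou3f4, Six4 and the like) complete a family and were chosen after their values were seen. Values of 3 tested members are not reported here; they remain in the counts and medians over all members. The counts without Pou4f1, the sums without Hoxd8 and the split of the fibroblast markers were added after the data were seen.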

Additional observations from a re-analysis of the deposited data

How the results depend on the processing

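The direction of Barhl2 held in all 15 alternatives (log2 fold change -0.74 to -0.35), and 6 of them, all with the replicate block, called it. Without the block 0 genes and 0 members were called, whichever library was left out. With no filter on low counts 1136 of 28842 genes and 4 members passed (Barhl1, Barhl2, Irx5 and Otx1; 3 higher and 1 lower, 68 members in the fit). Leaving out replicates or libraries gave 0 genes in every fit without the block and 241 to 658 with it, with 0 to 1 members (none without replicate 2, without replicate 3 Pou4f1 alone, whose DMSO count is then 0), and a member median of 0.11 (without replicate 1, or without GSK-126 replicate 1 and the block) to 0.33 (without DMSO replicate 1 and the block), against 0.20. The cause was not tested. Signs of small changes reversed when replicates or libraries were left out. Without replicates 1 to 3 in turn, with the block, Pbx2 ranged from -0.17 to 0.31, Pou3f1 from -0.40 to 0.08, Prrx2 from -0.01 to 0.39 and Otx2 from -0.04 to 0.29. Without single libraries and without the block, the reversed values were -0.06 and -0.02 for Pbx2, -0.11 and -0.10 for Msx1, 0.21 and 0.31 for Pou3f1, -0.09 for Prrx2, -0.18 for Otx2, -0.02 for Irx1 and 0.11 for Six5. Without Hoxd8, an alternative added after the data were seen, the silent sum was 1.48 CPM higher with GSK-126, against 2.57 CPM with it. Depth limits all members near the floor of 3 counts, Pou4f1 and the silent genes first.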
